A study of Mus musculus with 6 samples.

Results

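Neuromodulator receptors are the proteins through which noradrenaline, dopamine, serotonin, acetylcholine, adenosine, endocannabinoids, histamine and opioid peptides act on the cells of the hippocampus. They were followed by gene symbol and not by their values. Every probe set that the platform annotation assigns to exactly 1 of 34 receptor symbols was taken, which gave 48 probe sets of 25 genes of the 45101 on the array. A probe set is a group of short probes that together give 1 intensity for a transcript, and a gene can have several. The symbols Adrb1, Adra1a, Adra1d, Adra2a, Drd5, Htr2a, Chrm2, Chrm5 and Adora1 had no probe set of their own in the annotation used and are not analysed here. Of the 25 genes, 22 had at least 1 probe set bright enough to be tested, and 36 of the 48 probe sets were tested.

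The arrays were one-colour Affymetrix mouse arrays. They carried total RNA of hippocampus from 3 wild-type samples and 3 samples of mice in which inhibitor-1 was knocked out. Inhibitor-1, the product of Ppp1r1a, restrains protein phosphatase 1. The strain, sex, age and targeted allele of the mice are not stated in the labels, and neither is whether every sample was a separate animal. If they were not, the spread behind the p-values may be technical. In such bulk RNA, fewer cells of a type and less RNA per cell cannot be told apart.

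Most of these receptors are coupled to G proteins. Receptors coupled to Gs, such as the serotonin receptors Htr4, Htr6 and Htr7 and the histamine receptor Hrh2, raise cAMP and so activate protein kinase A, the kinase that switches inhibitor-1 on. Receptors coupled to Gi/o, such as Htr1a, Cnr1 and Oprl1, lower cAMP, and receptors coupled to Gq/11, such as Chrm1 and Htr2c, act through phospholipase C and calcium. Htr3a and the nicotinic subunits Chrna4, Chrna7 and Chrnb2 form ion channels instead. Noradrenaline, serotonin, histamine and much of the acetylcholine reach the hippocampus in axons from nuclei elsewhere in the brain, while endocannabinoids and adenosine are made locally.

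The labels were checked on the targeted gene. The only probe set of Ppp1r1a, 1422605_at, averaged 9258 ± 1002 over the wild-type arrays and 289.4 ± 51.5 over the knockout arrays (intensity, SD, n = 3 each). Markers of dentate, CA1, CA2 and CA3 neurons were present on the arrays, 33 of 33 genes with a probe set being bright enough to be tested. So were 13 of 15 such genes for thalamus and habenula, and 11 of 13 each for cerebral cortex and striatum. Being bright enough to be tested therefore does not single out hippocampus. Median intensities ran from 541.5 to 666 over the 6 arrays, lowest in replicate 1 of each group. Genes past the threshold in these data lie on chromosome 15 with Ppp1r1a, and 0 of the 25 receptor genes do.

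No receptor was called different between the groups. Of 36 tested probe sets, 0 passed limma's adjusted p of 0.05, where 0.0111% of all 26999 tested probe sets did (3 probe sets), and the lowest adjusted p among the receptors was 0.988 in limma. At an unadjusted p under 0.05 there were 2 receptor probe sets, 1 higher and 1 lower in knockout. That is 5.56% of the receptors against 4.38% of all probe sets tested (2.17% higher and 2.21% lower), a share near the background. The groups did not overlap for 1 receptor probe set, lower in knockout, against 9.89% of all probe sets tested (4.97% higher and 4.91% lower). Changes were above 0 for 18 of the 36 and below 0 for the other 18, where 50.9% of all probe sets tested lay above 0. The median log2 change of the 36 was -0.01 (all probe sets tested, 0.004).

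**Figure D1:**
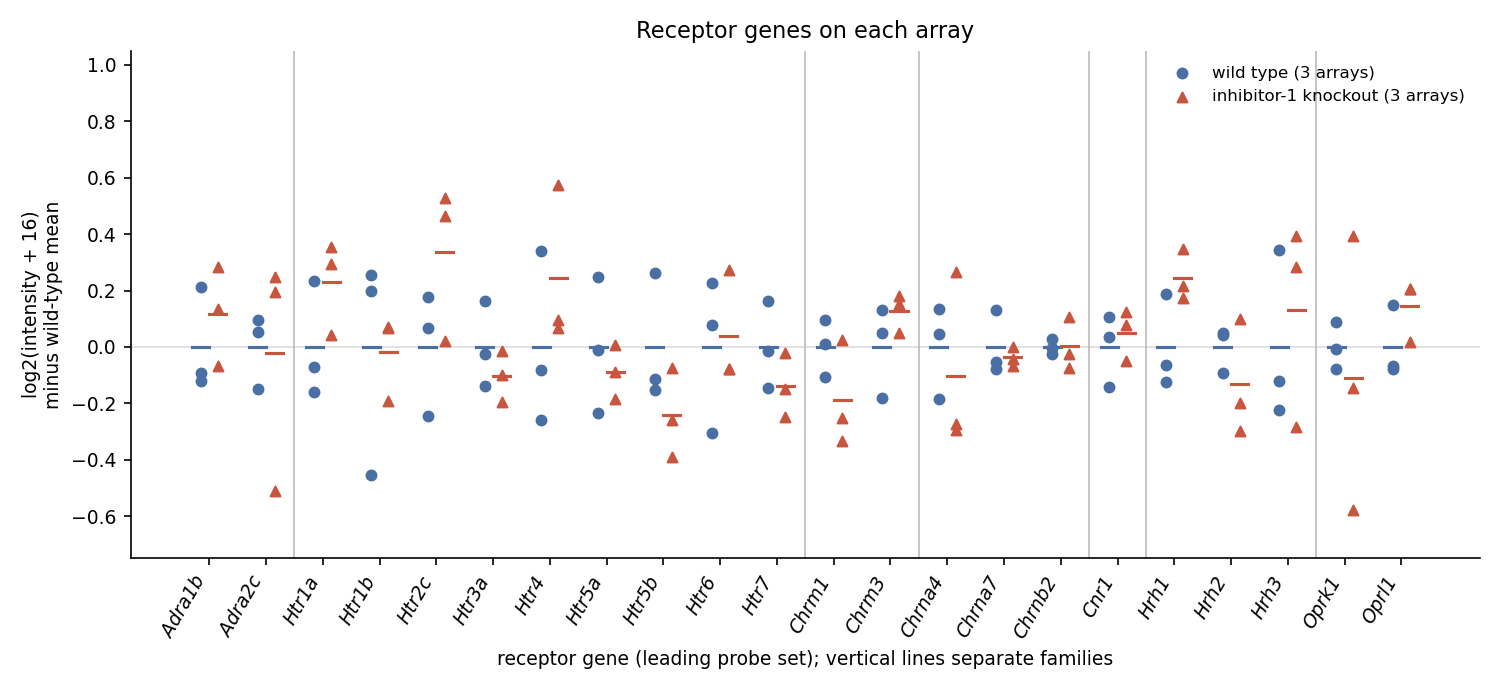
Each tested receptor gene by its leading probe set, the tested one with the highest mean intensity. The vertical axis is log2(intensity + 16) minus the wild-type mean, circles are the 3 wild-type arrays, triangles the 3 knockout arrays, horizontal bars the group means, and vertical lines separate the families in the order adrenergic, serotonin, muscarinic, nicotinic, cannabinoid, histamine and opioid. The groups overlap for all 22 genes plotted.

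The 2 probe sets with the lowest p belonged to the serotonin receptor Htr2c and to the nicotinic subunit Chrna7. Both genes are described first, with the sequence upstream of their annotated start. The promoter of the nicotinic subunit Chrnb2 is shown as well, since it holds TGACG, the core of the cAMP response element. This element binds CREB, a transcription factor that protein kinase A phosphorylates and protein phosphatase 1 dephosphorylates. RefSeq windows of 300 bases around annotated starts (250 before and 50 after, GRCm38.p6) were found for 20 of the 25 measured receptor genes, 32 windows in all. The core TGACG, searched on both strands, lay in 2 of the 32 windows (6.25%), those of Chrnb2 and Htr7, against 20.8% of all 32851 windows. The full element TGACGTCA, which contains the core, lay in 0 of the 32 and in 1.79% of all windows. A match is a string of letters and not a shown binding site. The sequences follow, 5′ to 3′ on the strand of the gene, with the core, on either strand, in capitals where it occurs.
Htr2c (chrX:146962263-146962463, plus strand): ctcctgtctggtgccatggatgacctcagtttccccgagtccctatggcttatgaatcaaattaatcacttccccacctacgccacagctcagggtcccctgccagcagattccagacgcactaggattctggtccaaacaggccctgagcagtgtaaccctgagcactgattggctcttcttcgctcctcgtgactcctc
Chrna7 (chr7:63212527-63212776, minus strand): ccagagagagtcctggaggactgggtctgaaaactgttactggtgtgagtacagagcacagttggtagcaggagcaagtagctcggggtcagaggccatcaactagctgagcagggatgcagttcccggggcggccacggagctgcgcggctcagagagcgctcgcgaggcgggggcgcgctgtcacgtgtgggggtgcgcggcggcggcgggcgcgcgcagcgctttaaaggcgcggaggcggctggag
Chrnb2 (chr3:89764633-89764882, minus strand): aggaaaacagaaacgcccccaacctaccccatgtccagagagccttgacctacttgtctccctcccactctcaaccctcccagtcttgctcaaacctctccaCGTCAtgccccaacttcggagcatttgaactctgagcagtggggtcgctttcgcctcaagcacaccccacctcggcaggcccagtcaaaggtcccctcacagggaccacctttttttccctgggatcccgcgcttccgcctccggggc

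Htr2c, a Gq/11-coupled serotonin receptor known for its high expression in choroid plexus epithelium as well as in neurons, was the receptor with the largest difference among the leading probe sets. At 1435513_at the wild-type intensities were 6597, 8860 and 8205 in replicates 1 to 3, and the knockout intensities were 7944, 11280 and 10792. Knockout replicates 2 and 3 lay above every wild-type array, while knockout replicate 1 lay among them, so the groups overlapped. The group means were 7887 ± 1164 (SD, n = 3) and 10005 ± 1802 (SD, n = 3). The log2 difference, knockout minus wild type, was 0.34 (SE 0.14, 95% interval 0.02 to 0.65; limma unadjusted p = 0.0382, adjusted p = 0.988), so the difference did not pass the threshold. The second probe set, 1450477_at, read 2174, 2271 and 2691 in wild type and 2722, 2853 and 2674 in knockout. Its difference was of the same sign, 0.21 (SE 0.13, limma unadjusted p = 0.142), and the groups overlapped through wild type replicate 3.

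The mean level of choroid plexus markers followed the array order of Htr2c at 1435513_at, but not at 1450477_at. Of 20 listed markers of choroid plexus and ependyma, 18 were tested, 17 of them had a change above 0 and 1 below (median 0.54), and 0 were called. Their summed intensity ran from 218853 to 314141 over the wild-type arrays and from 249263 to 314730 over the knockout arrays, and none of the 18 was at 0. Cldn2, a tight junction claudin of this epithelium, had the smallest p of the list (0.72, limma unadjusted p = 0.0303, adjusted p = 0.988), and its other probe set gave 0.31 (SE 0.37). Kcnj13, a potassium channel of this epithelium, read 3904, 8900 and 9424 in wild type and 7429, 15660 and 13967 in knockout. Ttr, the carrier protein that choroid plexus secretes in bulk, had a log2 change of -0.02, and its values make up most of the summed intensity. The mean log2 level of the 18 markers, set against the wild-type mean, was -0.64, 0.337 and 0.303 in wild type and -0.006, 0.821 and 0.667 in knockout. From lowest to highest, the 6 arrays stood in the same order for this level as for Htr2c at 1435513_at: wild type 1, knockout 1, wild type 3, wild type 2, knockout 3 and knockout 2. The other Htr2c probe set followed another order, with knockout replicate 1 the second highest array. With the marker level as a covariate the Htr2c difference at 1435513_at was 0.10 (SE 0.10, 95% interval -0.12 to 0.32), and at 1450477_at it was 0.15 (SE 0.16). The marker level was itself 0.494 higher in knockout on average, so it cannot be fully told apart from the group on 6 arrays. Without wild type replicate 1, the array with the lowest marker level, the difference at 1435513_at was 0.21. Without knockout replicate 1 it was 0.49 (limma unadjusted p = 0.00139, adjusted p = 0.208). In that fit 10.8% of all probe sets tested had a limma unadjusted p under 0.05, against 4.38% with all arrays. Without knockout replicate 2 the difference was 0.24, and without knockout replicate 3 it was 0.27. Without wild type replicate 2 it was 0.43, and without wild type replicate 3 it was 0.37. Markers of meninges and fibroblasts were also above 0, 12 of 12 tested (median 0.37), with 0 called. Alas2, the 1 tested red blood cell marker, read 333, 663 and 533 in wild type and 974, 1099 and 780 in knockout, without overlap (0.92, SE 0.31, limma unadjusted p = 0.0128, adjusted p = 0.988). Summed astrocyte markers were higher in knockout without overlap (313576 to 326456 against 332576 to 338181) and summed oligodendrocyte markers lower without overlap (375646 to 409259 against 352175 to 371598), sums in which bright genes weigh most. On the mean log2 level both lists overlapped, astrocytes at -0.039 to 0.072 against 0.042 to 0.068 and oligodendrocytes at -0.063 to 0.105 against -0.115 to 0.048. On that level the markers of CA2 and CA3 neurons did not overlap (-0.027 to 0.018 against 0.021 to 0.114), with 5 of 12 tested genes above 0 and 7 below. The median change of these 12 genes was -0.02, below 0 unlike the mean level, and the changes ran from -0.20 to 0.58. On the mean log2 level the markers of dentate granule neurons and of CA1 and subiculum neurons overlapped. The part of the meningeal, blood, glial and neuronal markers in the receptor values was not tested.

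**Figure D2:**
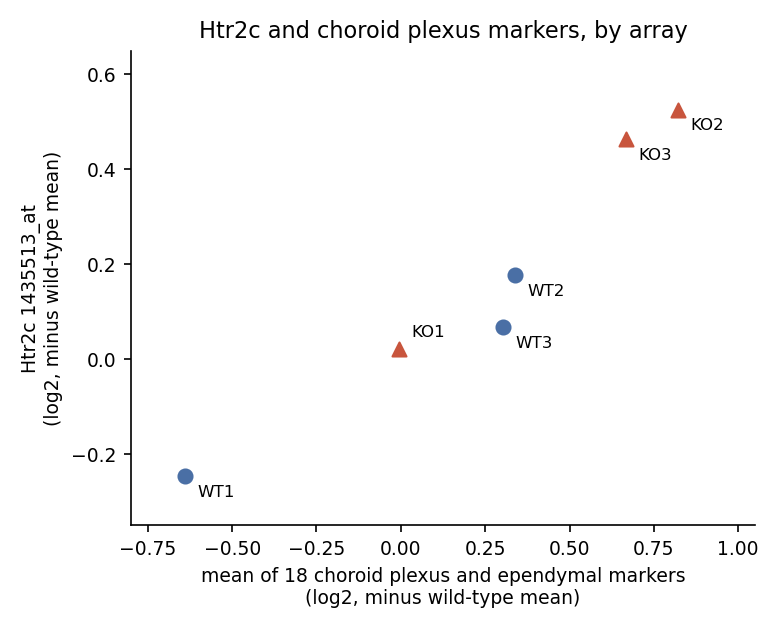
The vertical axis gives Htr2c at probe set 1435513_at and the horizontal axis the mean of the 18 tested choroid plexus and ependymal markers, each on the log2 scale minus its wild-type mean. Each point is 1 array (circles WT, wild type; triangles KO, knockout; the number is the replicate), and the 6 arrays hold the same order on both axes, from WT1 at -0.64 to KO2 at 0.821 on the horizontal axis.

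Chrna7, the subunit of the homomeric nicotinic channel with high calcium permeability, gave different readings at its 2 probe sets. The brighter one, 1440681_at, read 7424, 7562 and 8579 in wild type and 7487, 7844 and 7617 in knockout. Its values lay together, with a log2 difference of -0.04 (SE 0.09, 95% interval -0.23 to 0.16). The other, 1450299_at, read 1704, 1724 and 1508 in wild type and 1185, 1436 and 978 in knockout. All 3 knockout arrays lay below all 3 wild-type arrays, and this was the 1 tested receptor probe set whose groups did not overlap. Its means were 1645 ± 119 (SD, n = 3) and 1200 ± 230 (SD, n = 3), a log2 difference of -0.47 (SE 0.20, 95% interval -0.89 to -0.04; limma unadjusted p = 0.0357, adjusted p = 0.988). With the choroid plexus level as a covariate it was -0.46 (limma unadjusted p = 0.0673, adjusted p = 0.83), and without knockout replicate 3 it was -0.33 (limma unadjusted p = 0.134, adjusted p = 1). The gap between the 2 probe sets was 0.43 larger in knockout on the log2 scale (two-sided exact permutation p = 0.2 over 20 arrangements, the smallest possible being 0.1). Which exons each probe set reads was not examined.

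**Figure D3:**
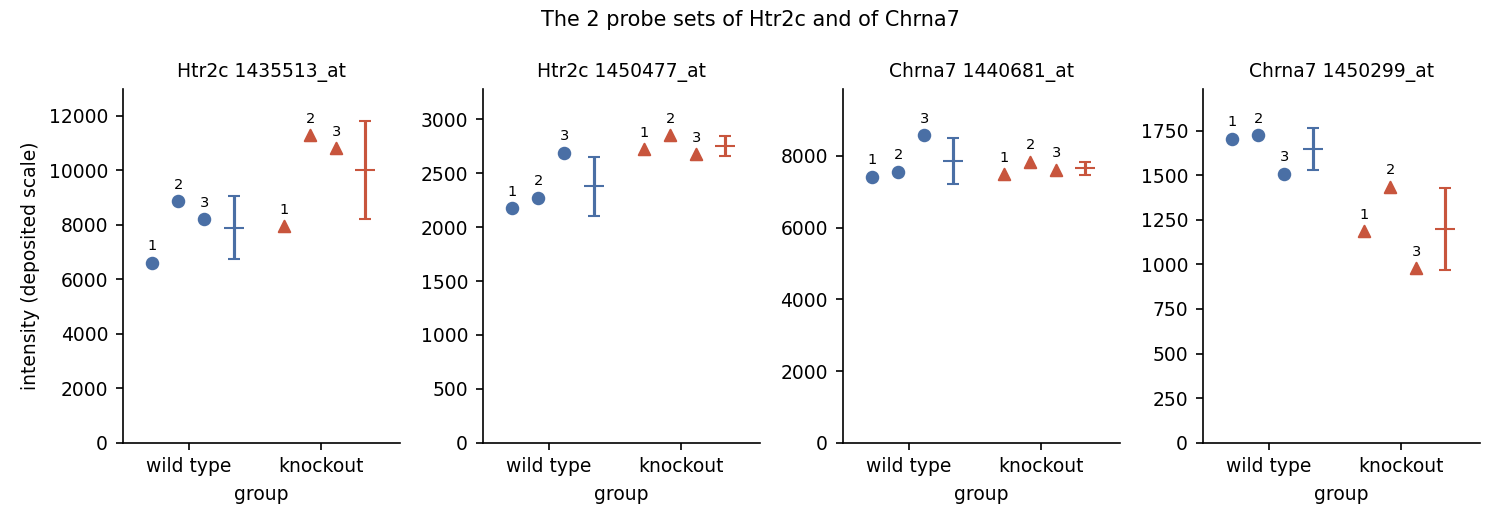
Intensities on the deposited scale for the 2 probe sets of Htr2c (left panels) and of Chrna7 (right panels), with wild-type arrays as circles, knockout arrays as triangles, the replicate number above each point, and the mean with its SD (n = 3) beside each group. Only at Chrna7 1450299_at do all knockout points lie below all wild-type points.

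Among the other serotonin receptors no difference approached the threshold. Over the family, 13 probe sets of 9 genes were tested, 8 with a change above 0 and 5 below, with a median of 0.10 and a range from -0.24 to 0.34. Htr1a, the Gi/o-coupled receptor abundant on pyramidal neurons, read 4257, 3444 and 3237 in wild type and 4635, 3726 and 4439 in knockout at 1438710_at. The knockout arrays were higher on average and the groups overlapped, with a difference of 0.23 (SE 0.14, limma unadjusted p = 0.118). Its other probe set gave 0.10 (SE 0.22). With the choroid plexus level as a covariate the Htr1a difference was 0.39 (SE 0.13, 95% interval 0.11 to 0.68; limma unadjusted p = 0.0103, adjusted p = 0.817), larger where that of Htr2c was smaller. Htr1b, a Gi/o-coupled receptor of axon terminals, had a difference of -0.02 (SE 0.23) at 1442077_at. Its other probe set was the least steady of all receptors tested, at 880, 503 and 142 in wild type and 805, 149 and 720 in knockout, so each group spanned almost the same range.

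The Gs-coupled serotonin receptors, whose signal runs toward protein kinase A, overlapped between the groups at every tested probe set. Htr4 read 1574, 1785 and 2395 in wild type and 2018, 2818 and 1979 in knockout at 1443365_at. The knockout mean was higher by 0.25 on the log2 scale (SE 0.20, limma unadjusted p = 0.241), and the other probe set gave 0.28 (SE 0.31). With the choroid plexus level as a covariate the first was 0.05 and the other was 0.25 (SE 0.37). Leaving out 1 array, the first ran from 0.08 without knockout replicate 2 to 0.42 without wild type replicate 3. Htr6 had a difference of 0.04 (SE 0.36) and Htr7 of -0.14 (SE 0.24). Htr3a, the channel-forming serotonin receptor of a class of interneurons, read 1768, 1636 and 2018 in wild type and 1781, 1680 and 1570 in knockout, a difference of -0.10 (SE 0.16). Htr5a, a Gi/o-coupled receptor, and the related Htr5b, counted in the same class here, had differences of -0.09 (SE 0.26) and -0.24 (SE 0.23).

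The muscarinic receptors bind the acetylcholine that septal axons release in the hippocampus. Chrm1, the Gq/11-coupled receptor of principal neurons, read 15019, 13053 and 14166 in wild type and 14306, 11148 and 11792 in knockout at 1439611_at. Knockout replicates 2 and 3 were the lowest arrays, and knockout replicate 1 the second highest. The means were 14079 ± 986 (SD, n = 3) and 12415 ± 1669 (SD, n = 3), a difference of -0.19 (SE 0.10, 95% interval -0.41 to 0.03; limma unadjusted p = 0.0905). The second probe set, 1450833_at, gave -0.30 (SE 0.20, limma unadjusted p = 0.164). The sign was the same at both, and the low arrays of the first were the arrays with the highest choroid plexus level. At the second the lowest arrays were knockout replicate 3 and wild type replicate 3. With the choroid plexus level as a covariate the difference at 1439611_at was -0.06 (SE 0.10), and at 1450833_at it was -0.19 (SE 0.22). Without knockout replicate 1 the first was -0.29 (limma unadjusted p = 0.00573, adjusted p = 0.263). In that fit 10.8% of all probe sets tested had a limma unadjusted p under 0.05. Leaving out any other array, the first ran from -0.24 (without wild type replicate 2) to -0.11 (without knockout replicate 2). Chrm3, also Gq/11-coupled, had a difference of 0.13 (SE 0.17). Chrm4, a Gi/o-coupled receptor, was under the filter on low values, its 6 readings running from 27 to 573.

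The nicotinic subunits Chrna4 and Chrnb2 together form the common heteromeric nicotinic receptor of the brain. Chrnb2 read 2443, 2410 and 2498 in wild type and 2326, 2639 and 2410 in knockout at 1436428_at. The wild-type arrays lay within the range of the knockout arrays. The difference was 0.003 (SE 0.13, 95% interval -0.28 to 0.29). The second tested probe set of Chrnb2 gave -0.29 (SE 0.23). Chrna4 had 3 tested probe sets, with differences of -0.10 (SE 0.22), -0.25 (SE 0.21) and, at the dimmest, 0.22 (SE 0.50). Of the 7 nicotinic probe sets, 5 had a change below 0, with a median of -0.10. They come from 3 genes, and probe sets of 1 gene are not independent.

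Cnr1, the Gi/o-coupled cannabinoid receptor of hippocampal axon terminals and of cholecystokinin interneurons in particular, was the most precisely measured receptor. At 1434172_at it read 14877, 17672 and 16791 in wild type and 17873, 15860 and 17307 in knockout. The groups overlapped in part, knockout replicate 1 being the highest array and wild type replicate 1 the lowest, with means of 16447 ± 1429 (SD, n = 3) and 17013 ± 1038 (SD, n = 3). The difference was 0.05 (SE 0.08, 95% interval -0.14 to 0.24), and the other probe set gave -0.04 (SE 0.11). Of the interneuron markers listed, 14 were tested, 5 above 0 and 9 below, with a median of -0.07. Sst, the peptide of one interneuron class, had the smallest p (-0.19, limma unadjusted p = 0.0236, adjusted p = 0.988).

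The 2 adrenergic receptors measured were Adra2c, a Gi/o-coupled receptor, and Adra1b, a Gq/11-coupled one. Adra2c read 1655, 1910 and 1967 in wild type and 1286, 2188 and 2108 in knockout at 1422335_at. Knockout replicate 1 was the lowest array and the other knockout arrays the highest, which left a difference of -0.02 (SE 0.21). Its second tested probe set gave -0.20 (SE 0.19). A dim untested one, 1439762_x_at, whose suffix marks probes that may also match other transcripts, read 306, 198 and 173 in wild type and 151, 19 and 16 in knockout. It lay under the filter on low values. Adra1b had a difference of 0.12 (SE 0.31).

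Histamine reaches the hippocampus from the hypothalamus. Hrh3, a Gi/o-coupled receptor, read 2759, 1854 and 1996 in wild type and 2856, 1781 and 2647 in knockout. Each group held both high and low arrays, and the difference was 0.13 (SE 0.21). It was 0.001 without knockout replicate 1 and 0.34 without knockout replicate 2. With the choroid plexus level as a covariate it was 0.41 (SE 0.18, limma unadjusted p = 0.0417, adjusted p = 0.83). Hrh1, a Gq/11-coupled receptor, read 1400, 1125 and 1175 in wild type and 1387, 1565 and 1429 in knockout at 1438494_at. Its lowest knockout array lay just under its highest wild-type array. The difference was 0.25 (SE 0.18, limma unadjusted p = 0.206), with 0.26 (SE 0.35) at the dimmer probe set. Hrh2, coupled to Gs, had a difference of -0.13 (SE 0.32).

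Of the opioid receptor family only the nociceptin receptor was well above the filter. Oprl1, Gi/o-coupled, read 4952, 4255 and 4225 in wild type and 5157, 4519 and 5155 in knockout at 1450486_a_at, a difference of 0.14 (SE 0.11, limma unadjusted p = 0.218). Its other probe sets gave -0.09 (SE 0.12) and 0.11 (SE 0.18). Oprk1, the dynorphin receptor, had a difference of -0.11 (SE 0.36) at its 1 tested probe set. Oprm1, the mu receptor, had 4 probe sets, all under the filter, with readings from 25 to 339. Oprd1, the delta receptor, was also under it, its 6 readings lying between 148 and 508. A value under the filter does not show that a receptor is absent.

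**Figure D4:**
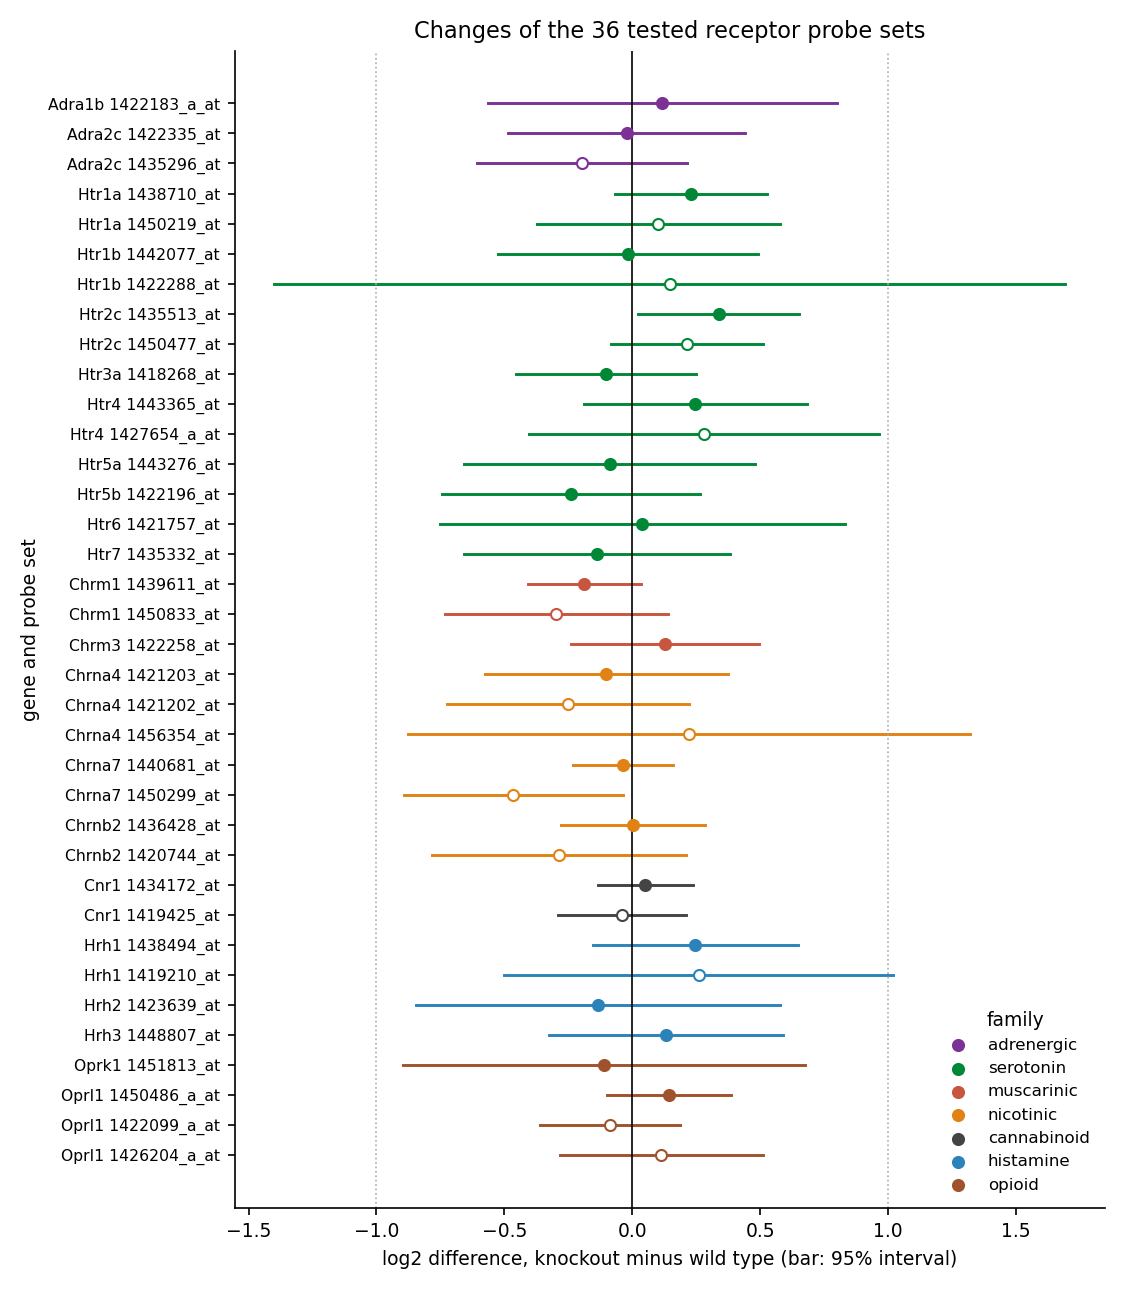
Log2 difference (knockout minus wild type) of each of the 36 tested receptor probe sets with its 95% interval from limma; filled points are leading probe sets, open points the other probe sets of the same gene, colours give the family, and dotted lines mark a 2-fold change either way. The intervals of Htr2c 1435513_at and Chrna7 1450299_at leave out 0, and 33 of the 36 lie within the dotted lines.

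Grouped by the coupling each receptor was listed under, no class stood out by its calls, 0 in each. Of 5 tested probe sets of Gs-coupled receptors 3 had a change above 0 (median 0.04), and of 15 of Gi/o-coupled receptors 7 did (median -0.02). Of 8 probe sets of Gq/11-coupled receptors 6 did (median 0.17), Chrm1 being the exception. Of 8 probe sets of channel subunits 2 did (median -0.10). These counts share genes and arrays and were not tested.

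Where a gene had more than 1 tested probe set, the readings could be set against each other. This held for 12 genes with 14 pairs of a leading and another probe set, and 9 pairs had changes of the same sign. In 7 of the 12 genes every tested probe set had the same sign: Adra2c, Htr1a, Htr2c, Htr4, Chrm1, Chrna7 and Hrh1. Htr1b, Chrna4, Chrnb2, Cnr1 and Oprl1 had changes of both signs. None of the changes of these 5 genes had an unadjusted p under 0.05 in limma.

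The intervals show what the arrays could resolve. Over the 22 genes, the 95% interval of the leading probe set lay within a 1.5-fold change either way for 11 genes and within a 2-fold change for all 22. Of the 36 probe sets, 16 lay within 1.5-fold (44.4%, against 54.8% of all probe sets tested) and 33 within 2-fold. The reach of the interval to either side of the change ran from 0.19 for Cnr1 to 1.55 for the dim probe set of Htr1b, with a median of 0.45 (all probe sets tested, 0.39). It followed the signal: the median reach was 0.68 for the 13 receptor probe sets among the dimmest, 0.43 for 15 of middle intensity and 0.25 for the brightest 8, where the tested probe sets were cut into 3 equal classes by mean intensity. The last 8 belong to Htr1a, Htr2c, Chrm1, Chrna7, Cnr1 and Oprl1. A missed threshold at the dimmer receptors thus leaves wide room for a difference.

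**Figure D5:**
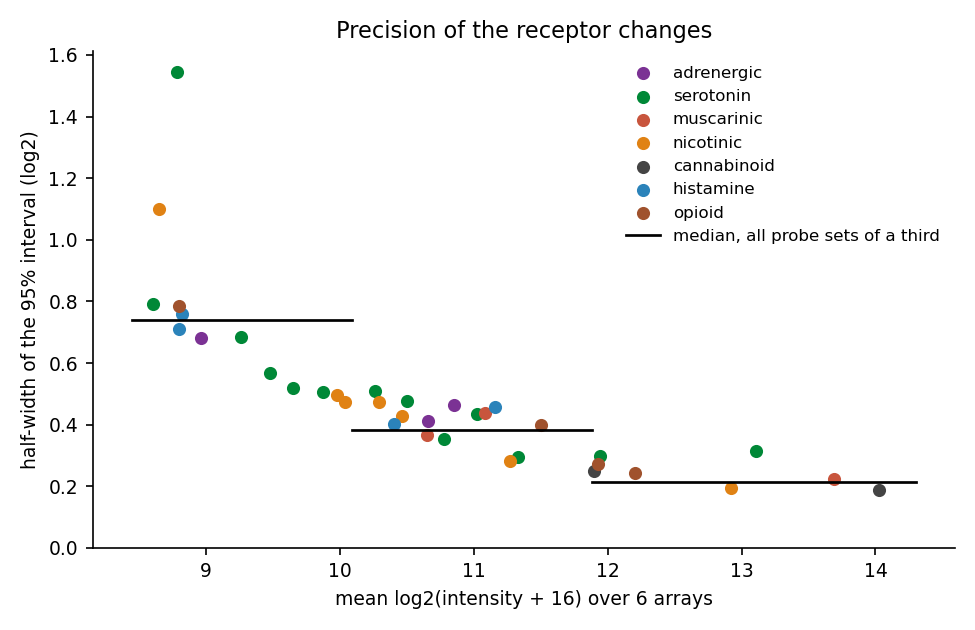
Reach of the 95% interval to either side of the log2 change (vertical axis) against mean log2(intensity + 16) over the 6 arrays (horizontal axis) for the 36 tested receptor probe sets, coloured by family. Black lines are the medians over all tested probe sets in each of 3 equal intensity classes, 0.74, 0.38 and 0.21, and the receptor points decline toward higher intensity, with the dim probe sets of Htr1b at 1.55 and Chrna4 at 1.10 standing above the rest.

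Around the receptors, the genes that make, clear or transmit the signals were read from lists. Of 26 further receptors of the same families 20 had a probe set, and 3 were bright enough to be tested, Drd1, Drd2 and Chrna5. Drd1, the Gs-coupled dopamine receptor, read 488, 254 and 370 in wild type and 715, 586 and 665 in knockout at 1455629_at, higher in knockout on every array (log2 difference 0.84, SE 0.34, limma unadjusted p = 0.0303, adjusted p = 0.988). Its brighter probe set, 1456051_at, read 903, 834 and 439 in wild type and 1277, 463 and 734 in knockout, with overlap and a difference of 0.13 (SE 0.39). The 11 tested markers of striatum, where Drd1 is most abundant, had a median change of 0.08, and their summed intensity ran from 20312 to 27061 over the wild-type arrays and from 22126 to 27972 over the knockout arrays. Drd1 is itself one of those markers. Their part in the Drd1 reading was not tested. Chrna5, an accessory nicotinic subunit, had groups without overlap at 1427401_at (765, 947 and 712 against 605, 627 and 707) and a difference of -0.31 (SE 0.25). Its other tested probe set, 1442035_at, overlapped (509, 529 and 579 against 578, 434 and 533), with a difference of -0.07 (SE 0.29).

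Downstream of the receptors, 19 genes of G protein subunits were tested, 7 above 0 and 12 below, with a median of -0.03 and 0 called. The smallest p was that of Gnb4, a beta subunit, at its dimmest tested probe set, 1439632_at (-0.56, SE 0.27, limma unadjusted p = 0.0669). Its brightest probe set, 1419470_at, gave -0.01 (SE 0.15) and the remaining one 0.15 (SE 0.18), so the readings of Gnb4 differed in sign. Receptor kinases, arrestins and RGS proteins, which end receptor signals, gave 19 tested genes, 9 above 0 and 10 below, and 0 called. Rgs17 had the smallest p of these, at 1439779_at (0.24, SE 0.10, limma unadjusted p = 0.0401), and its brighter probe set gave 0.23 (SE 0.12, limma unadjusted p = 0.0876). Arrb2, an arrestin that uncouples and internalises receptors, was the 1 gene below 0.05 by its leading probe set. It read 6541, 7402 and 7609 in wild type and 6473, 5098 and 6439 in knockout, without overlap but with knockout replicate 1 only just below wild type replicate 1 (-0.26, SE 0.11, limma unadjusted p = 0.041, adjusted p = 0.988). Its other probe set gave -0.21 (SE 0.11, limma unadjusted p = 0.0803).

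Among 23 tested genes of transmitter synthesis, transport and breakdown, 9 were above 0 and 14 below, with a median of -0.01 and 0 called. Maoa, which degrades serotonin and noradrenaline, read 3552, 4098 and 3539 in wild type and 3243, 3077 and 3002 in knockout (-0.26, SE 0.12, limma unadjusted p = 0.0465, adjusted p = 0.988). Every knockout array lay below every wild-type array at this probe set. The other tested probe set of Maoa, 1442676_at, read 1990, 2109 and 2326 in wild type and 2851, 1808 and 1877 in knockout, with overlap and a difference of -0.004 (SE 0.19). The enzymes and transporters that mark the neurons of origin, Th and Dbh for catecholamines, Tph2 and Slc6a4 for serotonin and Chat, Slc5a7 and Slc18a3 for acetylcholine, were all under the filter. Of 14 genes with a probe set that mark hypothalamus, septum and the monoamine and cholinergic nuclei, 11 were under it, with single readings of up to 721.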

How the data were processed

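The authors deposited 1 table of linear probe set intensity, with a column for each of 6 arrays. The labels and the table name no software. The mean without the highest and lowest 2% of values was 2500 on every array, so the table had been scaled before deposit. Symbols come from the platform annotation, which gives 34958 probe sets exactly 1 symbol, and all 25 measured receptor genes were found by gene ID in RefSeq. Values were taken as log2(intensity + 16), so changes of dim probe sets are understated. After leaving out controls and the dimmest 40% by mean, 26999 probe sets remained. The groups were compared over these with limma 3.58.1 in R 4.3.3 (intensity trend, two-sided), with Benjamini-Hochberg adjustment over all 26999 and a threshold of 0.05. The fit was run on simulated data with independent noise, where recovery was required only for changes larger than any receptor change here. That run does not show whether changes of receptor size would be called. No detection calls were used, and the number of arrays limits the precision.

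A receptor is given by its tested probe set of highest mean, with its other probe sets beside it. A pathway gene is given by the probe set of smallest p, with its other tested ones. All members are named, with every reading for those at an unadjusted p under 0.05, for those without overlap and for the brightest of each family. Further receptors were given every reading after their values were seen. From the pathway lists, and the marker lists described in detail, the gene of smallest p is named, with defining markers. Drd2, Chrna5 and Arrb2 were named after their values were seen. The members and lists were chosen with earlier results of these data known. The fit was repeated with pseudocounts of 1 and 64, with no filter and one of 60%, after quantile normalization or median centring, and with other variance models or weights. It was also repeated with a replicate block, a choroid plexus covariate, arrays left out, and averaged probe sets.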

Additional observations from a re-analysis of the deposited data

How the results depend on the processing

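With 3 arrays against 3, dim receptors are the limit, and why values changed between fits was not tested. No receptor probe set was called in any of 18 alternative fits, and the median change of the receptors moved by less than its SD between arrays (0.07) in each. The count at an unadjusted p under 0.05 was 2 of 36 in the fit reported (4.38% of all probe sets tested). It was 3 of 48 without a filter (4.63% of all) and 3 with array weights (7.97%). It was 1 with median centring (2.79%) and 1 without an intensity trend (4.47%). Leaving out 1 array it was 0 (without knockout replicate 3) to 2, where the share of all ran from 3.08% to 10.8% (without knockout replicate 1). With the choroid plexus covariate the count was 2 again (5.98% of all). These were Htr1a and Hrh3, and Htr2c and Chrna7 no longer counted. The count without overlap, 1 as reported, was 2 without a filter (the added one being Adra2c 1439762_x_at), 2 with median centring, 2 to 9 leaving out 1 array, highest without wild type replicate 3 or knockout replicate 1, and 14 without replicate 1 of both groups. These last counts rise with fewer arrays, by construction: over all probe sets the share was 17.6% to 28.9% leaving out 1 array and 41.8% without replicate 1 of both groups. Without a filter that share was 9.75%, and with median centring 6.48%. Htr2c kept its sign in 19 alternatives (0.10 to 0.49) and Chrm1 in 19 (-0.29 to -0.06). Of 401 comparisons over 22 genes, 373 kept the sign and 28 changed it, in 9 genes that were not called in any of them. With the choroid plexus covariate the changed values were 0.091 (Htr1b), -0.161 (Htr6), 0.097 (Chrna4) and -0.032 (Chrnb2). Without replicate 1 of both groups they were 0.147 (Adra2c), 0.038 (Htr1b), 0.084 (Htr5a), -0.056 (Htr6) and -0.056 (Cnr1). With array weights Adra2c was at 0.095. For Chrnb2, quantile normalization gave -0.013, median centring -0.019 and the mean of its probe sets -0.142; for Htr1b that mean was 0.064. Leaving out 1 array, ranges were -0.158 to 0.222 for Adra2c, -0.246 to 0.109 for Htr1b, -0.207 to 0.035 for Htr5a, -0.114 to 0.152 for Htr6, -0.074 to 0.030 for Chrna7, -0.049 to 0.041 for Chrnb2, -0.020 to 0.104 for Cnr1 and -0.363 to 0.122 for Oprk1. Among genes that kept their sign the range was widest for Hrh3 (0.001 to 0.34) and Htr4 (0.08 to 0.42). No label pairs samples of the same number, and their deviations correlated at 0.241, 0.0542 and 0.0998. With the replicate block, 0 receptor probe sets were called, and 11 of all probe sets were (3 in the fit reported). In that fit 3 receptor probe sets had an unadjusted p under 0.05 (5.46% of all did), Chrm1 being added to Htr2c and Chrna7.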
